A study of Mus musculus with 23 samples.

Results

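The mRNAs of 10 matricellular and related matrix glycoproteins were followed in mouse sciatic nerves (SNs): Postn (periostin), Tnc (tenascin-C), Thbs1, Thbs2, Thbs3 and Thbs4 (thrombospondins), Spp1 (osteopontin), Sparc (osteonectin), Fn1 (fibronectin) and Tgfbi (transforming growth factor beta induced). They were taken by gene symbol, and all 10 were found among the 43068 genes of the crush libraries and the 22880 genes of the mutant libraries. All 10 also passed the filter on low counts in every comparison, so no member is missing from the results.

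In the crush experiment, RNA was sequenced from wild-type C57bl6 SNs at 3 days post crush (3 dpc; 4 crushed nerves), from the contralateral nerves of crush-operated mice (n = 4) and from nerves labelled as uncrushed surgery controls (n = 3); the mice were males of 2 months, and the crushed sample was the stretch 1 to 8 mm distal to the lesion. In the second experiment, SNs were taken 3 months post tamoxifen (3 mpT) from Dicer iKO mice (P0-CreERT2 -/+, Dicer1 flox/flox; n = 3), from Dgcr8 iKO mice (P0-CreERT2 -/+, Dgcr8 flox/flox; n = 3) and from their controls, which were homozygous for the same floxed allele and P0-CreERT2 -/- (n = 3 each). All mice of the second experiment, controls included, carried floxed alleles and received tamoxifen at 8 to 10 weeks of age on 5 consecutive days, and none of the controls carried Cre. Dicer and Dgcr8 are both needed to make most miRNAs. The Cre transgene targets myelinating Schwann cells, whereas the sample is the whole nerve. The sequenced mutants had been picked for nerves with visible pathology, which limits them as an unselected sample of the genotype. The 2 experiments used different library kits and gene lists, so levels were compared only within an experiment.

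Matricellular proteins are secreted into the extracellular matrix, where they act on cells rather than bear load. They bind integrins and other surface receptors, collagens and growth factors, and many of them are low in resting adult tissue and high in development, wounds and fibrosis. In a crushed peripheral nerve, axons distal to the lesion degenerate, Schwann cells drop their myelin programme, and macrophages and fibroblasts take part in building a matrix through which axons regrow. Fibronectin is a structural glycoprotein of provisional wound matrix and is described here with the others because periostin, tenascin-C and the thrombospondins are laid down with it.

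Total expected counts per library ranged from 6617716 to 12806066 in the crush experiment and from 5594859 to 10143244 in the mutants, and levels are given in CPM, the count per 1000000 counts of the library after its total was scaled by the TMM factor of edgeR within each experiment. The lowest count of any member was 36.0, for Thbs3 in an uncrushed library. Dicer1 was at 81.0 to 82.8 CPM in Dicer iKO nerves and at 88.0 to 91.0 CPM in their controls (log2 fold change -0.11 ± 0.08 SE, adjusted p = 0.357), and Dgcr8 was at 39.3 to 53.7 CPM in Dgcr8 iKO nerves and at 34.8 to 41.9 CPM in their controls (0.22 ± 0.15, adjusted p = 0.233). These counts pool all exons and all cells of the nerve and therefore do not check the deletion. The Dicer controls differed from each other. In controls 1, 2 and 3 the summed fibroblast markers (Pdgfra, Dcn, Lum, Col1a1, Col3a1, Pi16) were 14752, 11093 and 4578 CPM. Summed macrophage markers (8 genes) were 696, 530 and 271 CPM, and summed Schwann cell markers (6 genes) 22499, 28765 and 36488 CPM. Dgcr8 controls held 6043 to 7896 CPM of the fibroblast, 270 to 329 CPM of the macrophage and 30070 to 35008 CPM of the Schwann cell markers. Dicer controls 1 and 2 were above them in fibroblast and macrophage markers. Dicer control 3 was below them in fibroblast and above them in Schwann cell markers. Log2 fold changes against Dicer control 3 alone are therefore also given. That choice was made after the data were seen and leaves 1 control library, so the values of single genes are given without p-values or calls. Only the count of members called against this control is given, with its limits, where the dependence on the processing is described. Where control 3 was the lowest of the controls, a larger value follows from the choice.

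At 3 dpc, most of the 10 genes differed from uninjured nerves by several fold. A gene was called changed when it differed at least 2-fold with an adjusted p of 0.05 or less (edgeR quasi-likelihood test, Benjamini-Hochberg over all genes tested). Against contralateral nerves, 7 of the 10 members rose (Tnc, Thbs2, Postn, Thbs1, Tgfbi, Fn1 and Spp1) and 1 fell (Sparc), where 14.6% of all 16667 genes tested were called higher and 13.6% lower. Against uncrushed nerves the count was likewise 7 higher and 1 lower, where 15.3% of 17433 genes were called higher and 21.1% lower. The median log2 fold change of the 10 members was 3.02 against contralateral and 3.05 against uncrushed nerves, beside -0.06 and -0.03 over all genes tested. Both comparisons share the crushed libraries.

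In the mutants, all members that were called rose. Dicer iKO nerves had 5 members that rose (Postn, Tnc, Thbs2, Fn1 and Thbs1) and none fell, where 7.37% of 13045 genes were called higher and 1.64% lower. Dgcr8 iKO nerves had 7 that rose (Postn, Thbs2, Tnc, Thbs1, Fn1, Tgfbi and Thbs4) and none fell, where 13.4% of 13252 genes were called higher and 6.99% lower. The median log2 fold change of the members was 1.22 in Dicer iKO and 2.12 in Dgcr8 iKO nerves, beside -0.01 and -0.01 over all genes. Without Dicer control 2, Dicer iKO 2 or Dicer iKO 3 the Dicer iKO count was 2, as Postn, Tnc and Thbs1 moved just past the p threshold while their log2 fold changes stayed between 1.49 and 3.17.

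**Figure D1:**
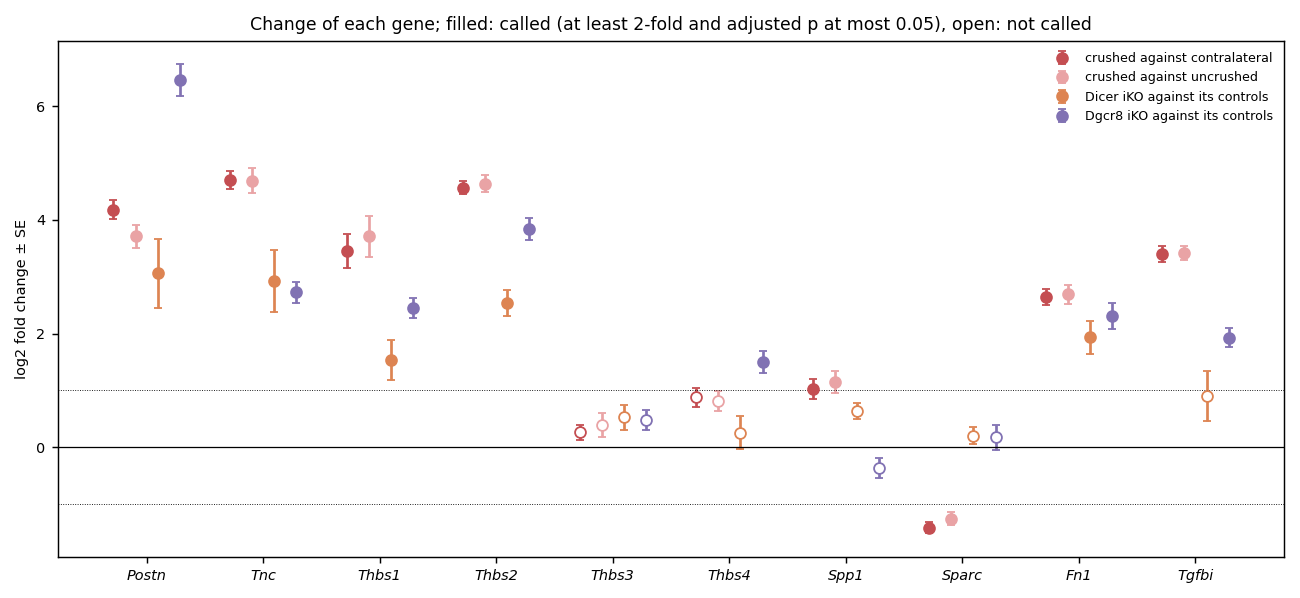
Log2 fold change (y axis, ± SE) of each of the 10 genes (x axis) in crushed nerves against contralateral (red) and uncrushed nerves (pink), in Dicer iKO (orange) and in Dgcr8 iKO nerves (purple) against their controls; filled points were called and dotted lines mark 2-fold. Postn, Tnc, Thbs1, Thbs2 and Fn1 are filled in all 4 comparisons, Sparc lies below 0 after crush only, and Postn in Dgcr8 iKO nerves is the highest point at 6.46.

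Postn encodes periostin, a secreted protein with fasciclin domains that binds integrins and promotes collagen cross-linking. It was at 8.80, 9.53 and 11.1 CPM in the 3 uncrushed nerves, at 6.52, 6.46, 6.85 and 7.98 CPM in the 4 contralateral nerves and at 146, 182, 135 and 93.8 CPM in the 4 crushed nerves. All 4 crushed nerves were thus far above all 7 other nerves of that experiment. The rise was 18.1-fold against contralateral nerves (log2 fold change 4.18 ± 0.17 SE, adjusted p = 2.8e-11) and 13.1-fold against uncrushed nerves (3.71 ± 0.20, adjusted p = 1.21e-08).

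Postn was also the member with the largest change in Dgcr8 iKO nerves, where it was at 930, 779 and 629 CPM against 7.65, 6.30 and 12.3 CPM in the controls. This was an 88.0-fold rise (6.46 ± 0.28, adjusted p = 2.87e-07), the 29th largest log2 fold change of the 13252 genes tested. Postn in the Dicer iKO nerves was at 210, 522 and 435 CPM against 73.5, 54.2 and 12.6 CPM in the controls, with no overlap (8.34-fold, 3.06 ± 0.61, adjusted p = 0.0135). Dicer controls 1 and 2 were above all 3 Dgcr8 controls, and against Dicer control 3 alone, the lowest, the log2 fold change was 4.94. The call was lost without Dicer control 2, without Dicer iKO 2 and without Dicer iKO 3 (log2 fold changes 3.17, 2.81 and 2.98), with adjusted p from 0.0582 to 0.0615.

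Tgfbi encodes a matrix protein related to periostin by its fasciclin domains and was first known as a TGF-beta target. It was at 92.7, 80.6 and 91.3 CPM in uncrushed, at 117, 73.3, 71.1 and 91.2 CPM in contralateral and at 924, 1012, 1102 and 1043 CPM in crushed nerves. The crushed nerves varied little (mean 1020 ± 74.3 CPM SD), and the rise was 10.5-fold against contralateral (3.40 ± 0.15, adjusted p = 7.22e-11) and 10.6-fold against uncrushed nerves (3.41 ± 0.13, adjusted p = 5.76e-10). Tgfbi rose 3.81-fold in Dgcr8 iKO nerves, from 107, 139 and 117 CPM to 418, 429 and 539 CPM (1.93 ± 0.16, adjusted p = 8.42e-06). The Dicer iKO nerves were at 370, 443 and 543 CPM against 374, 262 and 90.7 CPM, so that Dicer control 1 overlapped the mutants and the test was not passed (0.90 ± 0.44, adjusted p = 0.18). It was called without Dicer control 1 (1.36, adjusted p = 0.0471), and against Dicer control 3 alone, the lowest, its value was 2.31.

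**Figure D2:**
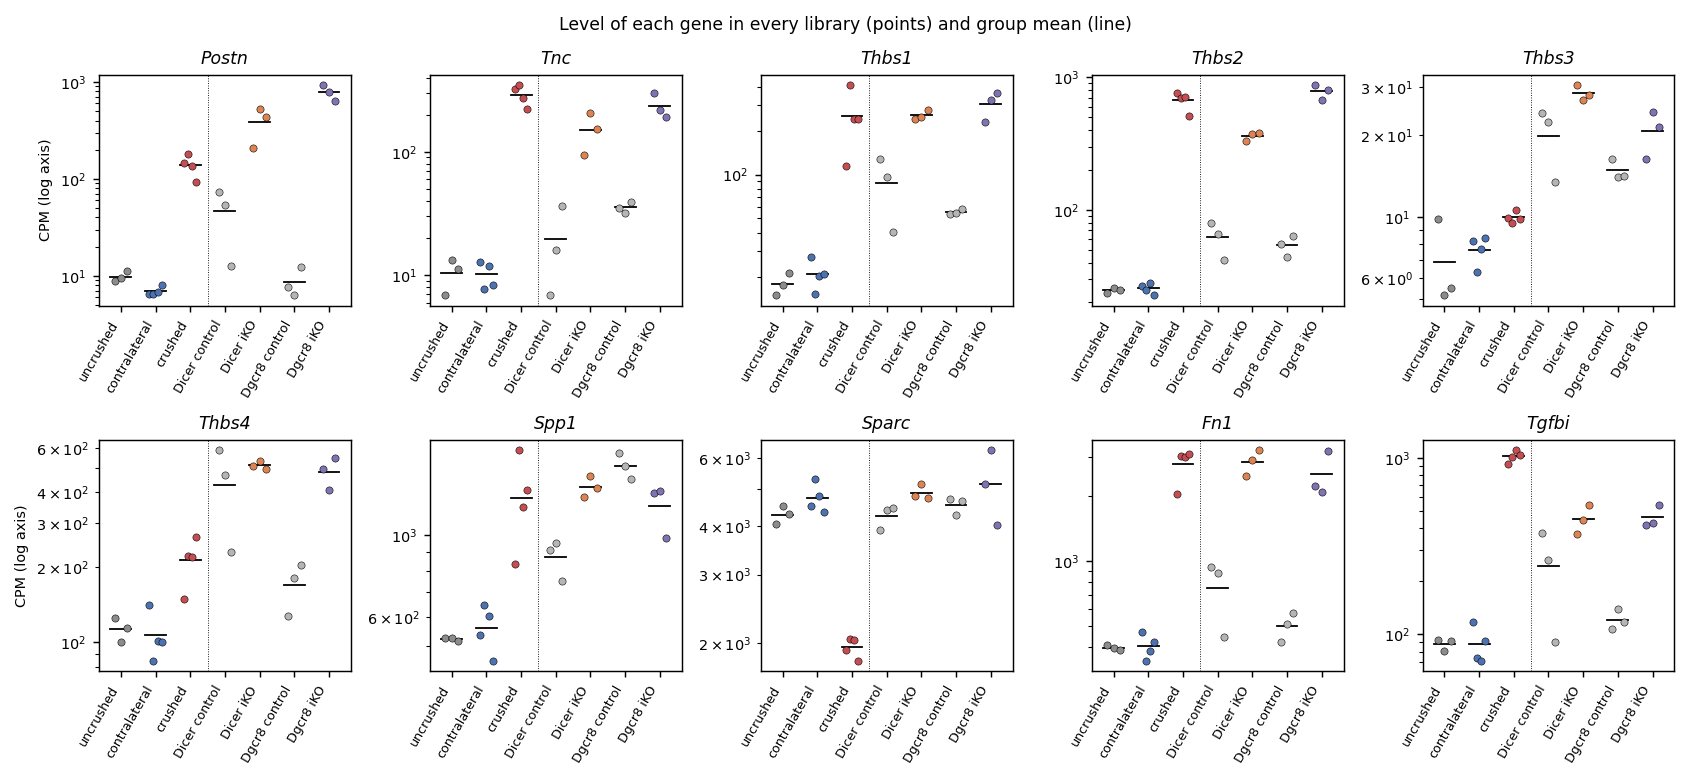
CPM of each of the 10 genes (1 panel each, y axis logarithmic and different in range between panels) in every library of the 7 groups (x axis), with points for libraries and lines for group means; the dotted line parts the experiments. The 4 crushed nerves sit above all uncrushed and contralateral nerves for Postn, Tnc, Thbs1, Thbs2, Thbs4, Spp1, Fn1 and Tgfbi. For Sparc they sit below. The share of all genes that separate in this way is not given. Against contralateral nerves, 11582 of all 16667 genes tested had an unadjusted p under 0.05 (edgeR quasi-likelihood test). The 3 Dicer controls are spread widely for Postn, from 12.6 to 73.5 CPM.

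Tnc encodes tenascin-C, a 6-armed adhesion-modulating glycoprotein of developing and wounded tissue. It was at 6.92, 13.3 and 11.3 CPM in uncrushed, at 12.8, 7.78, 11.8 and 8.37 CPM in contralateral and at 321, 348, 271 and 224 CPM in crushed nerves. It had the largest log2 fold change of the 10 members after crush, 4.70 ± 0.16 against contralateral (26.0-fold, adjusted p = 7.69e-12) and 4.69 ± 0.22 against uncrushed nerves (25.8-fold, adjusted p = 4.03e-09). Tenascin-C mRNA in Dicer iKO nerves was at 93.6, 207 and 153 CPM against 6.89, 16.2 and 36.3 CPM (7.63-fold, 2.93 ± 0.54, adjusted p = 0.0111), and in Dgcr8 iKO nerves at 299, 219 and 190 CPM against 35.2, 32.0 and 39.6 CPM (6.61-fold, 2.72 ± 0.18, adjusted p = 2.39e-06). Among the Dicer controls Tnc ran opposite to Postn, with control 3 highest. Against that control alone the Dicer iKO log2 fold change was 2.05. Without Dicer control 2, Dicer iKO 2 or Dicer iKO 3 it was 2.80, 2.65 and 2.93, with adjusted p of 0.0579, 0.05005 and 0.0512, each just above the threshold.

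The 4 thrombospondins did not move together. Thbs1 and Thbs2 form homotrimers, can inhibit angiogenesis and share binding to CD47 and CD36, whereas Thbs3 and Thbs4 belong to the pentameric subgroup. Thbs2 was at 23.6, 25.9 and 24.9 CPM in uncrushed, at 26.5, 24.97, 28.0 and 22.7 CPM in contralateral and at 758, 701, 705 and 513 CPM in crushed nerves. The 7 uninjured nerves thus lay within 22.7 to 28.0 CPM, and the rise was 23.8-fold against contralateral (4.57 ± 0.12, adjusted p = 8.16e-13) and 24.8-fold against uncrushed nerves (4.63 ± 0.15, adjusted p = 2.37e-10). Thbs2 in Dicer iKO nerves was at 331, 373 and 378 CPM against 79.2, 66.2 and 41.8 CPM (5.80-fold, 2.54 ± 0.22, adjusted p = 0.00161). The Dgcr8 iKO nerves were at 873, 678 and 807 CPM against 55.7, 44.0 and 63.6 CPM (14.4-fold, 3.85 ± 0.19, adjusted p = 5.08e-07). Thbs2 and Fn1 were the members whose Dicer iKO call was kept when any single library was left out.

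Thbs1, which can activate latent TGF-beta, was at 14.9, 17.4 and 21.1 CPM in uncrushed, at 27.2, 15.2, 20.1 and 20.9 CPM in contralateral and at 114, 411, 241 and 240 CPM in crushed nerves. Its crushed libraries had the largest coefficient of variation of the 10 members (48.5%, mean 252 ± 122 CPM SD), with crushed 1 lowest, and the rise was 11.0-fold against contralateral (3.46 ± 0.30, adjusted p = 1.27e-07) and 13.1-fold against uncrushed nerves (3.71 ± 0.36, adjusted p = 2.11e-06). Thbs1 in Dgcr8 iKO nerves was at 230, 323 and 364 CPM against 53.7, 54.7 and 58.3 CPM (5.48-fold, 2.46 ± 0.17, adjusted p = 3.31e-06). The Dicer iKO nerves were at 242, 247 and 276 CPM against 128, 96.3 and 40.3 CPM (2.90-fold, 1.54 ± 0.36, adjusted p = 0.0223), and without Dicer control 2, Dicer iKO 2 or Dicer iKO 3 its log2 fold change was 1.60, 1.58 and 1.49, with adjusted p of 0.0767, 0.0743 and 0.0897.

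Thbs4, a thrombospondin of muscle, tendon and nervous tissue, was at 125, 99.9 and 114 CPM in uncrushed, at 141, 84.6, 101 and 99.99 CPM in contralateral and at 149, 222, 220 and 265 CPM in crushed nerves. Every crushed nerve was above every other nerve, but the difference stayed below 2-fold (log2 fold change 0.88 ± 0.17 against contralateral, adjusted p = 0.000409, and 0.81 ± 0.17 against uncrushed nerves, adjusted p = 0.00146). It passed the fold threshold without contralateral 1 (1.04) and, in both comparisons, with no filter on counts (1.05 and 1.04). Thbs4 rose 2.82-fold in Dgcr8 iKO nerves, from 127, 180 and 204 CPM to 492, 406 and 545 CPM (1.49 ± 0.19, adjusted p = 0.00012). Dicer iKO nerves were at 507, 531 and 492 CPM against 586, 468 and 229 CPM, so Dicer control 1 was the highest of the 6 libraries (0.26 ± 0.30, adjusted p = 0.567). Against Dicer control 3 alone, the lowest, its log2 fold change was 1.15, and without that control it was -0.04.

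Thbs3, the other pentameric member, was at 9.83, 5.18 and 5.496 CPM in uncrushed, at 6.30 to 8.37 CPM in contralateral and at 9.52 to 10.7 CPM in crushed nerves. It was not called in any of the 4 comparisons, with log2 fold changes of 0.26 ± 0.12 (crushed against contralateral, adjusted p = 0.0784), 0.39 ± 0.21 (crushed against uncrushed, adjusted p = 0.113), 0.52 ± 0.21 (Dicer iKO, adjusted p = 0.119) and 0.48 ± 0.18 (Dgcr8 iKO, adjusted p = 0.0459). The 95% intervals reached from -0.01 to 0.53 against contralateral and from -0.06 to 0.84 against uncrushed nerves.

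As a result the make-up of the thrombospondin transcripts differed between groups. Levels of different genes were compared per transcript length, as TPM, which scales every library to the same total. Of the summed TPM of the 4 genes, Thbs4 made up 72.6% ± 0.921 (SD, n = 3) in uncrushed and 72.7% ± 3.32 (n = 4) in contralateral nerves but 29.5% ± 6.60 (n = 4) in crushed nerves, where Thbs2 led with 49.3% ± 10.1 against 9.41% ± 1.48 in contralateral nerves. The Thbs2 share was 39.7% to 63.0% in the 4 crushed nerves and at most 10.7% in the contralateral nerves. For Dgcr8 iKO nerves the Thbs2 share was 38.0% ± 3.45 against 11.1% ± 2.65 in the controls, and in Dicer iKO nerves 21.6% ± 1.06 against 6.26% ± 0.857. Thbs4 kept the largest share in both mutants, 44.5% ± 1.997 in Dgcr8 iKO and 59.2% ± 2.06 in Dicer iKO nerves. These shares are a description and were not tested.

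**Figure D3:**
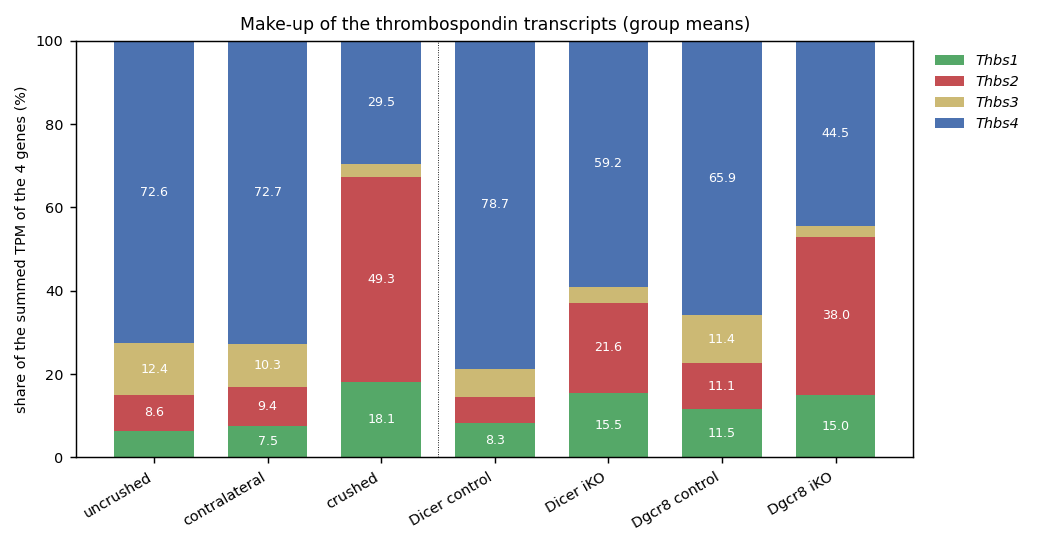
Share of Thbs1 (green), Thbs2 (red), Thbs3 (yellow) and Thbs4 (blue) in the summed TPM of the 4 genes (y axis, percent, group means) in the 7 groups (x axis; dotted line between experiments). Thbs4 makes up 72.6% in uncrushed and 29.5% in crushed nerves, while Thbs2 goes from 8.55% to 49.3%.

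Fn1 encodes fibronectin, which cells bind through integrin alpha 5 beta 1 and assemble into fibrils. It was at 412, 396 and 392 CPM in uncrushed, at 472, 348, 384 and 424 CPM in contralateral and at 2045, 3033, 3003 and 3108 CPM in crushed nerves. Crushed 1 was the lowest of the crushed nerves yet far above all uninjured nerves, and the rise was 6.26-fold against contralateral (2.65 ± 0.14, adjusted p = 8.16e-10) and 6.44-fold against uncrushed nerves (2.69 ± 0.17, adjusted p = 4.56e-08). Fn1 in Dicer iKO nerves was at 2464, 2915 and 3232 CPM against 938, 878 and 446 CPM (3.82-fold, 1.93 ± 0.28, adjusted p = 0.00516), and in Dgcr8 iKO nerves at 2215, 2075 and 3217 CPM against 422, 516 and 576 CPM (4.95-fold, 2.31 ± 0.22, adjusted p = 2.01e-05). Crushed 1 also had the lowest macrophage marker sum of the crushed nerves, 511 CPM against 800 to 906 CPM, and the part of this in its Fn1 level was not tested.

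Fibronectin mRNA is alternatively spliced. The 2 exons known as EIIIA and EIIIB each encode a whole extra type III repeat and are included in embryonic and wound fibronectin and largely skipped in the plasma form made by liver. Their sequences are shown because the share of Fn1 transcripts that hold them is the splicing readout. EIIIA is exon 33 of 270 nt (GRCm38, chr1:71603660-71603929, minus strand) and EIIIB exon 25 of 273 nt (chr1:71613763-71614035, minus strand); both are coding, both lengths are multiples of 3, and both sequences are from the GENCODE transcripts.
Fn1 EIIIA: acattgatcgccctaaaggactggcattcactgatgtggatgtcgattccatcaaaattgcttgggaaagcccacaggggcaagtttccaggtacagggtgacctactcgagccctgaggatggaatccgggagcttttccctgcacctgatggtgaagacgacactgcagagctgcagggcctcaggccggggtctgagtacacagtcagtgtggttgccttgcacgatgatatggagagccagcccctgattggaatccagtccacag
Fn1 EIIIB: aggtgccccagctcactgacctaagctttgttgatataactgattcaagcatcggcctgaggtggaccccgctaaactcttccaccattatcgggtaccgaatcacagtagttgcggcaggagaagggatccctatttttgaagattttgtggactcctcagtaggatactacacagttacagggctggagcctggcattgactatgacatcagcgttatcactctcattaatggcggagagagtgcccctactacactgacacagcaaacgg

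The share of Fn1 transcripts with EIIIA lay above that of the controls in every crushed and every mutant library, a difference that could not pass the test after adjustment. It was 33.6%, 34.8% and 35.7% in uncrushed, 27.9%, 34.0%, 27.9% and 30.3% in contralateral and 49.6%, 45.5%, 48.5% and 51.6% in crushed nerves, out of 2210 to 30212 expected counts of full-length coding transcripts per library. In Dicer iKO nerves it was 42.1%, 46.3% and 44.2% against 19.5%, 22.8% and 25.1%, and in Dgcr8 iKO nerves 41.7%, 48.5% and 45.7% against 22.6%, 28.0% and 20.2%. Groups did not overlap in any of these 4 comparisons, and the differences of the means were 18.8 percentage points (crushed minus contralateral), 14.1 (crushed minus uncrushed), 21.7 (Dicer iKO) and 21.7 (Dgcr8 iKO). The exact permutation tests gave p = 0.0286, 0.0571, 0.1 and 0.1, two-sided and each the smallest that its group sizes allow, and 0.227 after adjustment over the 25 tests of exon shares. With 3 libraries against 3, an exact permutation test cannot go below p = 0.1. Among the Dicer controls, control 1 had the lowest EIIIA share, while it had the highest Fn1 level.

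EIIIB was included less often and followed the same order after crush. Its share was 9.76% to 11.5% in uncrushed, 5.11% to 8.79% in contralateral and 18.8% to 21.97% in crushed nerves, a difference of 13.4 percentage points against contralateral (exact permutation p = 0.0286) and 9.74 against uncrushed nerves (exact permutation p = 0.0571), again without overlap. In Dgcr8 iKO nerves it was 11.4% to 17.2% against 6.995% to 8.55%, without overlap (exact permutation p = 0.1), and in Dicer iKO nerves 7.38% to 13.97% against 5.08% to 8.86%, with overlap (exact permutation p = 0.2). After adjustment over the 25 tests of exon shares, p was 0.227 in both crush comparisons and in Dgcr8 iKO nerves. It was 0.3125 in Dicer iKO nerves. The shares rest on how RSEM, the authors' counting program, assigns short reads to transcripts that share most of their sequence.

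**Figure D4:**
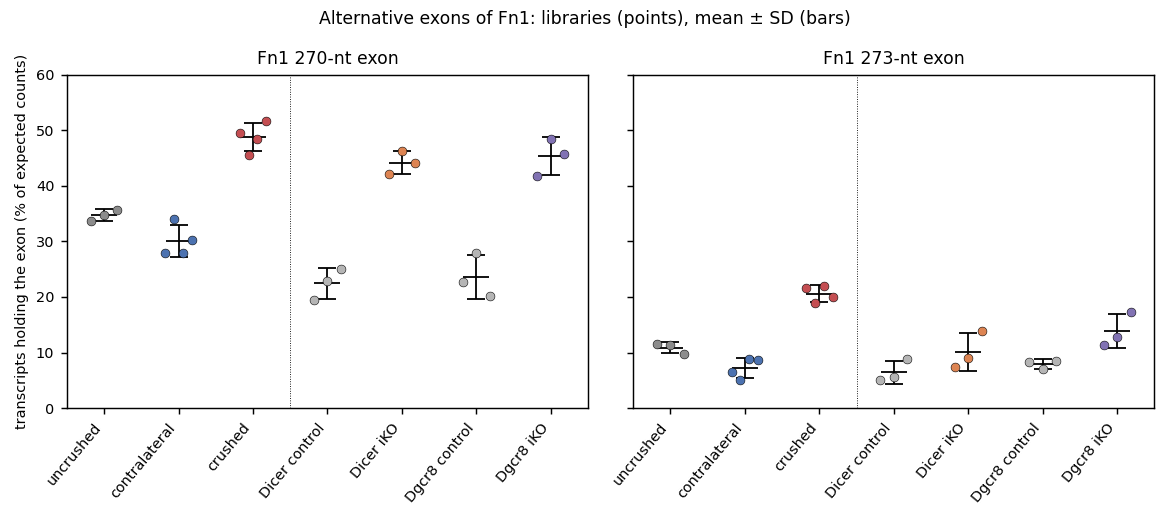
Percent of the expected counts of full-length coding Fn1 transcripts that hold the 270-nt exon EIIIA (left) or the 273-nt exon EIIIB (right) in every library (points), with mean ± SD (bars), for the 7 groups (x axis; dotted line between experiments). EIIIA lies between 45.5% and 51.6% in crushed nerves and between 27.9% and 35.7% in the 7 other nerves of that experiment.

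Alternative exons of Postn and Tnc were read from far fewer counts in resting nerves. Postn transcripts can hold an 81-nt exon (chr3:54380412-54380492, plus strand) and an 84-nt exon (chr3:54385671-54385754, plus strand), which lie in the part encoding the variable C-terminal region and are shown because they are what tells the Postn transcripts apart.
Postn 81-nt exon: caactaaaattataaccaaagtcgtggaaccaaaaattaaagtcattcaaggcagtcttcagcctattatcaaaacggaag
Postn 84-nt exon: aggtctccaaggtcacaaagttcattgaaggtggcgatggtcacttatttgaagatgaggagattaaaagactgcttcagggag

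The 81-nt exon was in 19.03%, 21.3% and 21.2% of Postn transcripts in Dgcr8 iKO nerves, out of 5260 to 7966 expected counts, and in 77.6%, 86.0% and 53.4% in the controls, out of 44.0 to 110 counts (exact permutation p = 0.1). The groups did not overlap, but the control values rest on few reads. The 84-nt exon was in 15.9%, 29.9%, 44.7% and 28.6% of transcripts in crushed nerves and in 80.5%, 49.7%, 62.8% and 54.8% in contralateral nerves, the latter out of 48.3 to 65.0 counts (exact permutation p = 0.0286). After adjustment over the 25 tests of exon shares, this p was 0.227, as was that of the 81-nt exon in Dgcr8 iKO nerves. In uncrushed nerves the 84-nt exon share was 75.6%, 42.5% and 18.2%, which overlapped the crushed nerves. In the mutants the 84-nt exon share was 22.4 percentage points above the controls in Dgcr8 iKO nerves (exact permutation p = 0.2) and 1.44 above in Dicer iKO nerves (exact permutation p = 0.9), with overlap in both, and the 81-nt exon overlapped in Dicer iKO nerves (exact permutation p = 0.4) and in both crush comparisons. The 273-nt exon of Tnc (chr4:63984460-63984732, minus strand), which encodes an alternative type III repeat, was in 17.9% to 22.4% of transcripts in crushed nerves and in 9.05% to 49.8% in contralateral nerves, with overlap in every comparison.

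Spp1 encodes osteopontin, a phosphorylated integrin and CD44 ligand made by Schwann cells and macrophages. It was at 526, 524 and 517 CPM in uncrushed, at 535, 646, 604 and 457 CPM in contralateral and at 832, 1695, 1187 and 1320 CPM in crushed nerves. The rise was close to the fold threshold, 2.04-fold against contralateral (1.03 ± 0.17, adjusted p = 0.000103) and 2.21-fold against uncrushed nerves (1.15 ± 0.19, adjusted p = 0.000209). Without crushed 2, the highest library, both fell below 2-fold (0.83 and 0.97), and without contralateral 4 or crushed 4 the first did (0.94 and 0.98), with adjusted p of 0.000584 or less throughout. With at least 10 counts asked of every sample the first was 0.97.

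In the mutants Spp1 differed in direction. Spp1 in Dicer iKO nerves was at 1265, 1441 and 1344 CPM against 907, 954 and 749 CPM in the controls, a difference of 1.56-fold that passed on p but not on size (0.64 ± 0.14, adjusted p = 0.0169). Dgcr8 iKO nerves were at 1299, 1318 and 980 CPM against 1668, 1541 and 1413 CPM, lower in every mutant but not past the threshold (-0.37 ± 0.18, adjusted p = 0.127). The difference between these effects was -1.001 ± 0.22 on the log2 scale (adjusted p = 0.141), which did not pass after adjustment. The Dgcr8 controls were themselves higher than the Dicer controls.

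Sparc encodes a collagen-binding, calcium-binding protein and had the highest CPM of the 10 members in every library outside the crushed group. It was the only one of them that fell after crush, and it was at 4048, 4504 and 4294 CPM in uncrushed, at 4497, 5289, 4771 and 4358 CPM in contralateral and at 1914, 2048, 2032 and 1801 CPM in crushed nerves. This was a drop to 0.374 of the contralateral level (-1.42 ± 0.10, adjusted p = 9.54e-09) and to 0.418 of the uncrushed level (-1.26 ± 0.11, adjusted p = 1.34e-06). In the mutants Sparc was not called, at 4774, 5145 and 4723 CPM in Dicer iKO nerves against 3901, 4391 and 4467 CPM (0.20 ± 0.15, 95% interval -0.15 to 0.56, adjusted p = 0.376) and at 5126, 6274 and 4032 CPM in Dgcr8 iKO nerves against 4700, 4275 and 4639 CPM (0.18 ± 0.22, -0.31 to 0.66, adjusted p = 0.544).

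Per transcript length, the order of the members changed mainly through the genes that rose. Sparc led with 337 ± 56.8 TPM (SD, n = 4) in contralateral nerves, followed by Spp1 with 63.4 ± 13.6 TPM, Fn1 with 13.7 ± 0.989 TPM and Thbs4 and Tgfbi with 5.05 ± 0.986 and 4.997 ± 1.11 TPM, the last pair within each other's spread. In crushed nerves Spp1 with 155 ± 48.5 TPM and Sparc with 153 ± 32.2 TPM were indistinguishable, followed by Fn1 with 102 ± 24.5 TPM, Tgfbi with 64.1 ± 15.6 TPM and Thbs2 with 18.4 ± 4.40 TPM. Tnc was the last of the 10 in uninjured nerves (0.220 ± 0.0469 TPM in contralateral), and Thbs3 was the last in crushed nerves (1.18 ± 0.224 TPM). A 5S ribosomal RNA transcript of 109 nt held 61.4% to 71.8% of the TPM in the crush libraries, so that these TPM values are low in absolute terms, whereas the order within a group does not depend on it.

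In the Dgcr8 comparison Postn changed place most. By TPM it was the last of the 10 in Dgcr8 controls (5.38 ± 1.81 TPM, n = 3) and the fourth in Dgcr8 iKO nerves (522 ± 103 TPM), after Sparc (4971 ± 1267 TPM), Spp1 (1914 ± 357 TPM) and Fn1 (833 ± 218 TPM). By the group mean its place was the sixth in Dicer controls (29.3 ± 18.9 TPM), close to Thbs1 (28.8 ± 13.8 TPM). Within these controls its place ranged from the sixth to the last, with 8.44 TPM in the lowest library. It was also the sixth in Dicer iKO nerves (261 ± 105 TPM), behind Sparc, Spp1, Fn1, Tgfbi (352 ± 69.3 TPM) and Thbs4 (335 ± 19.7 TPM). The ranges of Tgfbi, Thbs4 and Postn over the 3 libraries overlapped there.

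The crush changed these genes in a nerve whose marker genes also changed. Summed Schwann cell markers (Sox10, S100b, Mbp, Erbb3, Pmp22, Prx) were at 1052 to 1543 CPM in crushed nerves against 24026 to 30298 CPM in contralateral nerves, with 5 of 6 called lower, and summed macrophage markers were at 511 to 906 CPM against 91.5 to 171 CPM, with 7 of 8 called higher. Summed fibroblast markers were at 3042 to 3697 CPM against 3622 to 4849 CPM, with 1 of 6 called higher. Most of the Schwann cell sum came from the myelin genes Mbp, Pmp22 and Prx. Pmp22 was at 147 to 238 CPM in crushed against 9636 to 13164 CPM in contralateral nerves. Sox10 fell less, to 98.2 to 146 CPM against 236 to 306 CPM. In bulk nerve, fewer cells of a type and less RNA per cell cannot be told apart. In Dicer iKO nerves macrophage markers were at 1039 to 1613 CPM (5 of 8 called higher) and fibroblast markers at 19351 to 20653 CPM (3 of 6 called higher), and in Dgcr8 iKO nerves at 739 to 1558 CPM (6 of 8 called higher, 1 lower) and 14430 to 17398 CPM (4 of 6 called higher). Schwann cell markers were at 16423 to 21156 CPM in Dicer iKO nerves against 22499 to 36488 CPM, with 0 of 6 called. They were at 9938 to 19446 CPM in Dgcr8 iKO nerves against 30070 to 35008 CPM, with 4 of 6 called lower. Among them, Sox10 was at 222 to 262 CPM in Dgcr8 iKO nerves against 259 to 269 CPM. Erbb3 was higher there, at 329 to 428 CPM against 269 to 286 CPM. Postn, Tnc, Thbs1, Thbs2 and Fn1 rose in the same comparisons as most macrophage markers. In both mutants several fibroblast markers rose as well. The part of the marker changes in the members' changes was not tested. Summed muscle markers were at most 16.02 CPM, in Dicer control 3, and summed adipocyte markers were at 70.6 CPM in Dicer control 2, 55.1 CPM in Dgcr8 iKO 2 and 8.22 CPM or less elsewhere. The member counts without these libraries were 2 without Dicer control 2 and 7 without Dgcr8 iKO 2.

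**Figure D5:**
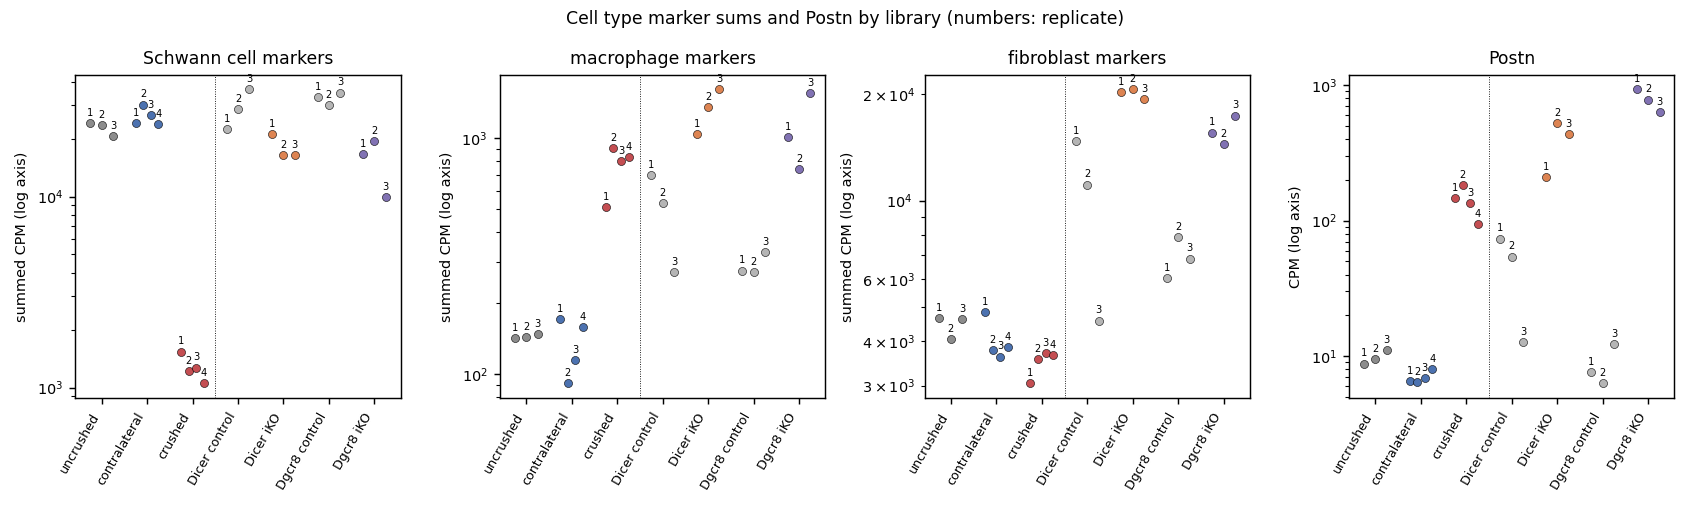
Summed CPM of 6 Schwann cell, 8 macrophage and 6 fibroblast markers and CPM of Postn (4 panels, y axes logarithmic) in every library of the 7 groups (x axis), numbered by replicate. In the macrophage, fibroblast and Postn panels Dicer controls 1 and 2 lie above Dicer control 3, for Postn at 73.5 and 54.2 against 12.6 CPM.

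The responses of the Dicer iKO and Dgcr8 iKO nerves were compared directly, as the Dgcr8 iKO effect minus the Dicer iKO effect. No member passed in edgeR (2 of 13552 genes did, 0.00738% in each direction). An unadjusted p under 0.05 was found for 5 members and for 1861 of all genes tested. DESeq2 called 3 members (Postn, Thbs2 and Spp1), where 170 of all genes were called higher and 65 lower. The largest difference was that of Postn, 3.41 ± 0.70 on the log2 scale (95% interval 1.89 to 4.92, adjusted p = 0.13), followed by Thbs2 with 1.32 ± 0.29 (0.70 to 1.93, adjusted p = 0.141) and Thbs4 with 1.24 ± 0.38 (0.41 to 2.07, adjusted p = 0.205). For Tnc the difference was -0.20 ± 0.58 (-1.45 to 1.05) and for Fn1 0.38 ± 0.37 (-0.42 to 1.17). The result turned on the Dicer controls. Without Dicer control 3, 6 members passed (Postn, Thbs1, Thbs2, Thbs4, Spp1 and Tgfbi), where 320 of all genes were called higher and 81 lower. With Dicer control 3 as the lone Dicer control the difference of Postn was 1.52.

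Contralateral nerves were set against uncrushed nerves to see whether the members differed in the uninjured nerve of operated mice. None was called, in edgeR or in DESeq2, and no gene of 17722 was called in edgeR (0%), with 3165 genes at an unadjusted p under 0.05. Over the alternatives, up to 13 genes were called higher and up to 128 lower, both with no filter on counts, and without uncrushed 1 or uncrushed 2 it was 30 and 95 lower, but no member was called. Among the members, Postn alone had an unadjusted p under 0.05, and all 4 contralateral nerves were below all 3 uncrushed nerves, by -0.57 ± 0.15 on the log2 scale (adjusted p = 0.135). The other 9 members lay between -0.16 and 0.17, and all of them overlapped between the groups. The EIIIB share of Fn1 was also lower in every contralateral than in every uncrushed nerve, by -3.63 percentage points (exact permutation p = 0.0571).

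Other genes of the pathway were taken as 4 lists, whose counts stand beside the shares of all genes called: 14.6% higher and 13.6% lower against contralateral nerves, 15.3% and 21.1% against uncrushed nerves, 7.37% and 1.64% in Dicer iKO and 13.4% and 6.99% in Dgcr8 iKO nerves. Of 24 other matricellular genes, 19 were tested in crushed against contralateral nerves, where 2 rose and 9 fell, with a median of -0.80. The 3 with the largest change were Fbln5, an elastic fibre protein (-3.36 ± 0.16), Smoc2 (-3.21 ± 0.19) and the proteoglycan Spock2 (-2.63 ± 0.10), while Fstl1 and Fbln1 rose. Against uncrushed nerves 2 of 20 tested rose and 11 fell. This list therefore had more members lower than higher after crush, unlike the 10 genes above. Both were chosen with earlier results of these data known, so this contrast is a description and not a test. None of 16 tested was called in Dicer iKO nerves in edgeR. Of 17 tested in Dgcr8 iKO nerves, 4 rose, led by Dmp1 (2.98 ± 0.58), Fbln1 (1.93 ± 0.32) and Fstl1 (1.80 ± 0.15), and 3 fell.

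Of 20 cell-surface receptors of the members, 8 of 19 tested rose and 3 fell in crushed against contralateral nerves. Cd44, a receptor of osteopontin and hyaluronan, changed most (4.22 ± 0.10), followed by Stab1, a scavenger receptor that takes up SPARC (2.17 ± 0.17), and Itga5, the alpha chain of the fibronectin receptor (2.11 ± 0.13). Against uncrushed nerves 9 rose and 2 fell. Dicer iKO nerves had 5 receptors that rose, led by Cd44 (2.25 ± 0.22), Itga4 (1.92 ± 0.18) and Stab1 (1.77 ± 0.28), and in Dgcr8 iKO nerves 9 rose and 1 fell, led by Cd44 (2.95 ± 0.13), Itgb3 (2.36 ± 0.16) and Cd36 (2.29 ± 0.30).

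Of 25 matrix partners and processing enzymes, 11 of 23 tested rose and 3 fell in crushed against contralateral nerves. The gelatinase Mmp9 rose (4.47 ± 0.29), the collagen cross-linking enzyme Lox fell (-4.07 ± 0.21) and the protease Adamts1 rose (3.47 ± 0.10). Against uncrushed nerves 11 rose and 2 fell, led by Lox (-4.07 ± 0.23). Dicer iKO nerves had 8 partners that rose and 1 that fell, led by the macrophage elastase Mmp12 (3.49 ± 0.30), Mmp9, which fell there (-2.71 ± 0.58), and Col1a1 (1.80 ± 0.35). Dgcr8 iKO nerves had 15 that rose and 2 that fell, led by Mmp12 (4.24 ± 0.55), Loxl1 (2.66 ± 0.18) and Mmp14 (2.46 ± 0.14).

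Of 13 TGF-beta and YAP pathway genes, which include upstream regulators of several members, 3 of 12 tested rose and 1 fell in crushed against contralateral nerves. Tgfb1 changed most (2.73 ± 0.12), followed by Smad7 (1.196 ± 0.18) and Smad3 (1.03 ± 0.08). Against uncrushed nerves 4 rose and none fell. Dicer iKO nerves had 2 that rose, Tgfb1 (1.77 ± 0.25) and Tgfbr1 (1.73 ± 0.20), and in Dgcr8 iKO nerves 5 rose, led by Tgfbr1 (2.40 ± 0.19), Tgfb2 (2.12 ± 0.26) and Tgfb1 (1.96 ± 0.36).

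Genes whose pattern was most like that of each member were found by the Euclidean distance over the 4 log2 fold changes among 8698 protein-coding genes. Thbs1 was nearest to the engulfment receptor gene Megf10 (distance 0.224) and Fyb (0.475), and Fn1 to Plcg2 (0.151) and Tbxas1 (0.217). Tnc was nearest to Itgam (0.533) and Cd44 (0.903), Thbs2 to the mitotic gene Prc1 (0.368) and the fibrillin gene Fbn2 (0.509), and Tgfbi to Coro1c (0.212) and Plbd1 (0.243). Sparc was nearest to the collagen chains Col5a3 (0.100) and Col4a2 (0.148). Postn had no close neighbour, the nearest being Ctss at a distance of 1.65 and Dio2 at 1.71. Thbs4 was nearest to Igfbp7 (0.316) and Elovl5 (0.318), Spp1 to Mctp1 (0.390) and Slc25a45 (0.395), and Thbs3 to Tmem87b (0.0691) and Slc26a2 (0.0807). The 2 crush comparisons share the crushed libraries, and likeness is a description.

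Because both deleted genes serve miRNA processing, the 3' ends of the members were searched for sites of miRNAs that the study names as abundant in adult nerve. The 3' UTR of the longest coding transcript (GENCODE, GRCm38) was scanned for matches to the seed, bases 2 to 8 of the mature miRNA, of miR-22, miR-181a and let-7f, and likewise of miR-26a and miR-27b and of both miR-10 members, which share a seed. The miRNA miR-143 was not searched. The 2 miRNAs with a match are shown with their seed in capitals (RefSeq), and below them the sites with the match in capitals.
miR-181a-5p: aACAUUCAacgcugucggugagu
miR-22-3p: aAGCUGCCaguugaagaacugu
Thbs4 site: aaactttttataTGAATGTggaaataa
Tgfbi site: caaagagaccatTGAATGTttttgaaa
Thbs1 site: aaaggcagcagaGGCAGCTgcttttca

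Of the 10 members, 3 held a match. The share of all 3' UTRs that hold any of the words searched was not counted, so this count has no background to be read against. The miR-181a word was in the 3' UTR of Thbs4 (chr13:92751607-92751633, minus strand) and of Tgfbi (chr13:56638816-56638842, plus strand), and is in 15.0% of 20657 mouse 3' UTRs. The miR-22 word was in Thbs1 (chr2:118126269-118126295, plus strand) and is in 11.6% of 3' UTRs. No let-7f word was found in these 10 windows, against 7.99% of all 3' UTRs. None was found of miR-27b (14.4% of all), miR-26a (8.81%) or miR-10 (11.1%). The 3' UTRs of Postn, Thbs4 and Sparc are short (153, 161 and 164 nt), while those of Thbs1 and Thbs2 are 2104 and 2013 nt. Postn, with the largest rise in both mutants, held no match, and neither did Tnc, Thbs2 or Fn1. A match is a description of letters and not a measured site, and the action of miRNAs on the members was not tested.

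Promoters of 8 members (11 windows of 250 bases before to 50 bases after the start, RefSeq, GRCm38.p6; Fn1 and Thbs1 had no entry) were searched on both strands for TGANTCA, a word of AP-1, and GGAATG, a word of TEAD factors. None of the 11 held the AP-1 word, which is in 7.81% of 32851 mouse promoters. The TEAD word was in 1 of the 11, that of Thbs4 (chr13:92794769-92795068, minus strand), which holds it in 2 overlapping copies, and is in 14.7% of promoters.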

How the data were processed

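Whole SNs were profiled by RNA-seq in 23 libraries. The deposited tables give, per transcript, expected counts, TPM and FPKM that the authors made with Trimmomatic, STAR and RSEM against Ensembl GRCm38, in versions that the study's methods give. The Ensembl release is not given in the sources used here. The labels and the methods differ on the library kit, so kits are named only as different. TPM and FPKM were used as deposited, summed per gene, for levels between members.

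Expected counts were rounded after summing per gene (43068 and 22880 genes). Genes passing filterByExpr (minimum count 10) were tested with TMM scaling and the edgeR 4.0.16 quasi-likelihood test (R 4.3.3), using only the groups compared, with Benjamini-Hochberg adjustment over all genes tested. A call needed an adjusted p of 0.05 or less and a fold change of at least 2; the difference between mutant effects needed the adjusted p alone. Errors after a log2 fold change are SEs and otherwise SDs. Alternatives were RLE and total-count scaling, other filters, DESeq2 1.42.0, 1 fit over all groups, a replicate block and leaving out each library.

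The 10 genes are named by the rule that all members are; other lists are given by counts and their 3 largest called changes. Members and lists were chosen with earlier results of these data known. Exon shares are percents of the expected counts of coding transcripts of at least 2500 nt that span the exon, compared by exact permutation tests (two-sided). No 2 libraries of a group were copies (27 pairs, chi-square per degree of freedom 3.86 to 40.3). Per the study's methods, each group came from as many mice as it has libraries; contralateral and crushed libraries carry no label that ties them to the same mouse. One uncrushed library is replicate 3 by title and was numbered so. The test scripts were tested on simulated data. All columns of per-sample values were mapped to samples. A few genes of the marker and pathway lists are not reported here and were left out of their sums and counts.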

Additional observations from a re-analysis of the deposited data

Results flagged for a closer look

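Fn1 in crushed nerves was lowest in crushed 1, at 2045 CPM, and its gap to the nearest of the other 3 crushed nerves (3003 CPM) was large for the range of the group by Dixon's criterion. The criterion was applied to 30 groups of 4 libraries, and chance alone meets it in about 1 of 20.

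Spp1 was higher in every Dicer iKO library and lower in every Dgcr8 iKO library than in their controls, with log2 fold changes of 0.64 and -0.37. The difference between the effects was tested and was -1.001 (adjusted p = 0.141, edgeR quasi-likelihood test).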

How the results depend on the processing

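The number of members called stayed at 7 to 9 in crushed against contralateral nerves over 15 settings and in crushed against uncrushed nerves over 14, at 7 in Dgcr8 iKO nerves over 13 and at 0 in contralateral against uncrushed nerves over 14. The Dicer iKO count moved from 5 to between 2 and 6 when 1 library was left out. Against Dicer control 3 alone it was 8, a count that takes its spread from the 3 mutants, assumes that the lone control varies like them and rests on a control chosen after its low levels were seen. The count of members that differed between the mutant effects went from 0 to 1 without a filter on counts (Postn, adjusted p = 0.0377), to 3 with DESeq2, and to between 0 and 6 when 1 library was left out. The cause of these moves was not tested. Spp1 fell under 2-fold against contralateral nerves also under the replicate block (0.9975), beside the settings given with the gene. Calls of all genes moved as well. Against contralateral nerves they ranged from 1695 to 3289 higher and 1808 to 2660 lower. Against uncrushed nerves they ranged from 1747 to 3757 higher and 2557 to 4760 lower. In Dgcr8 iKO nerves it was 1255 to 2004 higher and 723 to 1100 lower. With 1 library left out it was 515 to 1093 higher and 57 to 375 lower in Dicer iKO nerves. For the difference between mutant effects up to 320 were called higher and up to 81 lower. Total-count scaling moved the median of all genes from -0.03 to 0.08 in crushed against uncrushed, from -0.02 to 0.10 in contralateral against uncrushed and from -0.01 to 0.10 in Dgcr8 iKO nerves.

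When the replicate number entered as a block, the Dicer iKO count was 3, as Postn (adjusted p = 0.0599) and Thbs1 (adjusted p = 0.0614) were no longer called, and all-gene calls were 548 higher and 92 lower. Libraries of the same number did not deviate together (r from -0.09 to 0.18 in crushed against contralateral nerves), so the numbers were not taken as pairs. Under the block Thbs2 was at 0.011 in contralateral against uncrushed nerves.

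Directions changed only for differences that were not called. In contralateral against uncrushed nerves, total-count scaling gave 0.016 for Tnc, 0.089 for Thbs2, 0.071 for Fn1 and 0.047 for Tgfbi, no filter gave 0.018 for Thbs2, and at least 10 counts in every sample gave -0.0037 for Spp1. Leaving out 1 library gave -0.13 to 0.45 for Thbs3, -0.34 to 0.13 for Tnc, -0.040 to 0.099 for Spp1, -0.13 to 0.029 for Fn1, -0.25 to 0.014 for Tgfbi and -0.078 to 0.012 for Thbs2. In Dicer iKO nerves it gave -0.044 to 0.56 for Thbs4. For the difference between mutant effects it gave -0.20 to 0.18 for Thbs3, -0.18 to 0.13 for Sparc and -0.98 to 0.20 for Tnc, total-count scaling gave 0.0085 for Sparc, and Dicer control 3 as the lone control gave 0.67 for Tnc, -0.21 for Thbs1, 0.049 for Sparc, -0.38 for Fn1 and -0.39 for Tgfbi.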

Other observations

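The 10 mRNAs together took up 5475 ± 205 CPM in the 3 uncrushed nerves, 5962 ± 417 CPM in the 4 contralateral nerves and 8600.06 ± 1024 CPM in the 4 crushed nerves (mean ± SD). Sparc made up 79.3% of this sum in contralateral and 22.9% in crushed nerves, and Fn1 6.88% and 32.4%. In the mutant experiment the sum was 6784 ± 578 CPM in Dicer controls, 11248 ± 841 CPM in Dicer iKO, 7044 ± 212 CPM in Dgcr8 controls and 11917 ± 600 CPM in Dgcr8 iKO nerves (n = 3 each), with Fn1 at 10.9%, 25.5%, 7.17% and 21.2% of it.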
